A study of Drosophila melanogaster with 3 samples.

Results

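Of the 9531 regions in the deposited list of reproducible Fork head binding sites, 1103 (11.6%) had their summit in no annotated gene body and more than 500 bp from every annotated transcription start site (TSS). Within this list they were chosen by position alone, without use of the strength of a peak, its sequence or its support in the replicates. The list itself holds only regions called reproducible, with no signal score under 160. Strength and replicate support are therefore compared within a set already filtered. The remaining regions held 4231 summits within 500 bp of a TSS, termed promoter peaks, 3827 in introns farther than 500 bp from a TSS and 370 in exons. The study was a chromatin immunoprecipitation followed by sequencing (ChIP-seq) of whole Drosophila melanogaster prepupae, males and females pooled, from the transgenic line fkh-GFP, in which an enhanced green fluorescent protein is fused to the C terminus of Fork head and was pulled down with an anti-GFP antibody. All 3 biological replicates carried the same transgene and came from 1 line, and there was no second group; the labels describe an insertion targeting fkh without giving its extent, and list an age of 24 days, a value that is hard to reconcile with a prepupa. Regions were deposited for each replicate against 1 shared control, for the 3 replicates pooled, and as the reproducible list made from these.

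Fork head is the founding member of the Fox family of transcription factors, whose winged-helix domain reads a short, T-rich word in DNA. In the fly it is needed for the embryonic salivary glands and the gut, and in the late larva and prepupa it acts in the salivary gland during the ecdysone-triggered steps of metamorphosis. In animals with compact genomes such as the fly, regulatory DNA lies both at promoters and at a distance, in introns and in the gaps between genes, where enhancers can act on either neighbour or skip it. A peak in a whole-animal sample is a mixture over tissues, so fewer cells with a bound site and a lower occupancy per cell cannot be told apart.

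The sequences under some of the strongest of these summits are shown as examples. Each line gives the sequence up to 50 bases to each side of a summit, on the plus strand of the release 6 assembly from RefSeq, named by the protein-coding genes to its left and right. Capitals mark forkhead words on either strand, that is TATTTAC or TATTTAT, or TATTTGC or TATTTGT, or TGTTTAC or TGTTTAT, or TGTTTGC or TGTTTGT, or the reverse complement of one of them, and neighbouring words that overlap appear as 1 longer run. The first 10 are among the strongest members and the last 3 are further members with 3 or more words.
mIF2-fkh (chr3R:28547323-28547423): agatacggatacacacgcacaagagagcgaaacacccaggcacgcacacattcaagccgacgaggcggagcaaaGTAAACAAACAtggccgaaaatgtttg
jp-brwl (chr2L:9567474-9567574): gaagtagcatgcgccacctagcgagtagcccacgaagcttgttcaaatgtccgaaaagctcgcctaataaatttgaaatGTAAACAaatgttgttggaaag
corto-CG43131 (chr3R:5108111-5108211): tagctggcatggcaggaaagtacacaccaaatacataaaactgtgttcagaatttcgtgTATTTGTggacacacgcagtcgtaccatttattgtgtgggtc
Hacd1-Rh5 (chr2L:12004244-12004344): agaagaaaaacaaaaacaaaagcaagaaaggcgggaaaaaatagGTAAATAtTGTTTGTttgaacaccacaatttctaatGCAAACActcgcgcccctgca
CG6168-CG6163 (chr3L:11354398-11354498): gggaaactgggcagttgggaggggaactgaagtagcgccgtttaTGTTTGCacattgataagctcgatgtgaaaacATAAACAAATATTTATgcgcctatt
mIF2-fkh (chr3R:28556556-28556656): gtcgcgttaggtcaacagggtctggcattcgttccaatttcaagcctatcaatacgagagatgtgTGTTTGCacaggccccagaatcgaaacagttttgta
fkh-Noa36 (chr3R:28597718-28597818): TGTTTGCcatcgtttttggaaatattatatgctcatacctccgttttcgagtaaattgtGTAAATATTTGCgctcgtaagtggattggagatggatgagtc
dac-Nepl8 (chr2L:16486466-16486566): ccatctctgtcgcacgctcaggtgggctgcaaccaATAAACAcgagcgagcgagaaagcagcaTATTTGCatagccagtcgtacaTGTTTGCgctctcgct
hry-SrpRbeta (chr3L:8696568-8696668): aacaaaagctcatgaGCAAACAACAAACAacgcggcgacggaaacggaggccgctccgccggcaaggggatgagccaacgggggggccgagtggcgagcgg
noc-CG33648 (chr2L:14505164-14505264): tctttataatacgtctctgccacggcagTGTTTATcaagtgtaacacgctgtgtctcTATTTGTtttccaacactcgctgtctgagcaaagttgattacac
Inx2-cm (chrX:7004260-7004360): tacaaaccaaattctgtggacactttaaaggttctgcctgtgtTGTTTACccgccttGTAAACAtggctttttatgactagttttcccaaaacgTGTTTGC
RFeSP-chinmo (chr2L:1648773-1648873): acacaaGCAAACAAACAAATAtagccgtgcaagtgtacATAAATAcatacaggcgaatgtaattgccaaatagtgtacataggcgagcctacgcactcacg
hry-SrpRbeta (chr3L:8689841-8689941): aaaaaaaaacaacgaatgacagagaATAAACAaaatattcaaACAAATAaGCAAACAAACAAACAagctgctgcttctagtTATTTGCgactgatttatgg

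The words sat at no fixed place in these windows. In the strongest member shown, between mIF2 and fkh at chr3R:28547323-28547423, 2 overlapping words lay to the right of the summit, whereas the member between hry and SrpRbeta at chr3L:8689841-8689941 held 6 words on both strands. The member between corto and CG43131, at chr3R:5108111-5108211, carried a single TATTTGT next to its summit. The member between dac and Nepl8 at chr2L:16486466-16486566 held 3 separate words to the left and right of the summit.

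A forkhead word lay within 50 bp of the summit in 689 of the 1103 intergenic peaks (62.5%, exact 95% interval 59.5 to 65.3%), beside 58.5% of all 9531 peaks. In a window of the same width placed 500 bp to one side, 26.5% of the same regions held a word, a summit-to-flank ratio of 2.36. A word was present only at the summit in 493 regions and only in the flank in 96, a difference beyond counting error (two-sided exact McNemar test, p = 2.9e-65). Peaks are not replicates, and this p-value, like the others over peaks, covers counting error only. In the 3 replicate lists, taking the 9531 strongest regions of each, the share of intergenic summits with a word was 63.2%, 59.6% and 58.9% in replicates 1 to 3 (mean 60.6 ± 2.31, SD, n = 3), against 30.1%, 26.9% and 28.1% in the flanks. The lowest summit share was well above the highest flank share. The density of words reached 12.7 per kb of sequence at the summits, and stayed between 3.08 and 5.39 per kb more than 180 bp away.

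**Figure D1:**
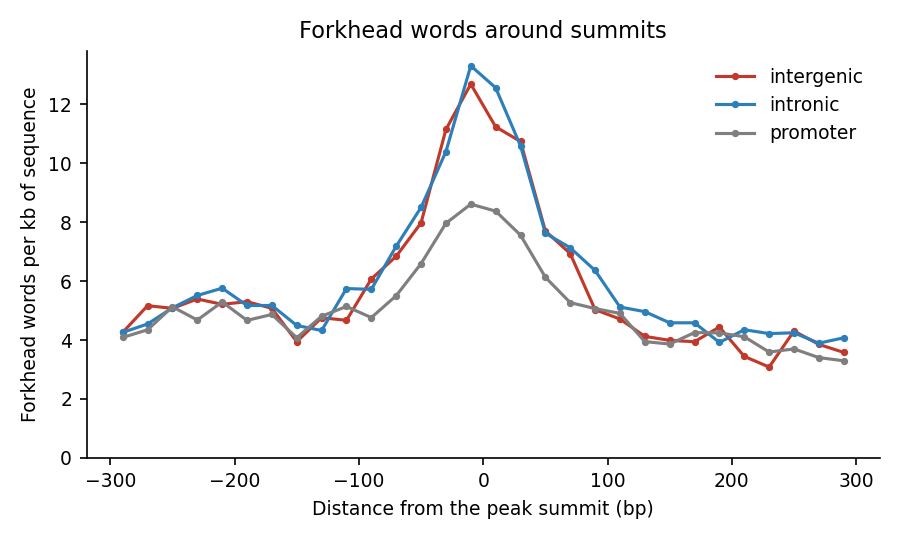
Forkhead words per kb of sequence (y axis) in 20 bp bins by distance from the summit in bp (x axis), for intergenic (red), intronic (blue) and promoter (grey) peaks of the reproducible list. The intergenic and intronic profiles run together to a maximum of 12.7 and 13.3 words per kb, and the promoter profile reaches 8.61.

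Intergenic peaks resembled intronic peaks in how often they held a word and differed from promoter peaks. Promoter summits held a word in 51.4% of cases, so the odds were 1.57 times higher in intergenic peaks (95% interval 1.37 to 1.81, two-sided Fisher's exact test, p = 4.4e-11). The difference was present in each replicate list, at 10.3, 10.1 and 11.1 percentage points. Intronic summits held a word in 64.8% of cases, an odds ratio of 0.903 with an interval of 0.784 to 1.04 (Fisher's exact test, p = 0.15), which leaves room for a modest difference in favour of introns. The intronic share was above the intergenic one in all 3 replicate lists, by 1.45, 3.39 and 4.34 percentage points. With the TSS limit at 250 bp, with windows of 100 bp to each side or with TGTTTAC and TGTTTAT alone, the difference from introns passed the threshold of 0.05.

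The difference from promoters was carried by some forms of the word and not by others. The forms split by their sixth base, counted from 1 at the 5′ end. Words with G there, such as TGTTTGC, were found at 42.4% of intergenic summits, 41.2% of intronic and 27.6% of promoter summits, an odds ratio of 1.94 between intergenic and promoter peaks (1.68 to 2.22, Fisher's exact test, p = 1.1e-20). TGTTTGC alone was present at 17.2% of intergenic and 8.32% of promoter summits, and TATTTGC at 11.97% and 6.17%. Words with A there, such as TGTTTAC, were found at 33.9% of intergenic and 33.0% of promoter summits, an odds ratio of 1.04 (0.904 to 1.20, Fisher's exact test, p = 0.57). TGTTTAC, the form most often given for Fox proteins, was present at 10.3% of intergenic, 13.0% of intronic and 11.3% of promoter summits, and at 0.997% of intergenic flanks.

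Against introns the pattern was the other way round. Words with G as the sixth base differed little, with an odds ratio of 1.05 (0.916 to 1.21, Fisher's exact test, p = 0.47). Words with A were fewer in intergenic peaks, 33.9% against 38.5% (odds ratio 0.819, 0.709 to 0.945, Fisher's exact test, p = 0.0053). In the replicate lists the share with an A form was 33.8%, 31.8% and 31.3% for intergenic summits (32.3 ± 1.37, SD, n = 3) and 38.7%, 37.1% and 38.7% for intronic ones (38.2 ± 0.917), and the 2 sets of values did not overlap. The share with a G form was 42.5%, 40.0% and 39.1% for intergenic and 28.4%, 26.1% and 24.8% for promoter summits, again without overlap. The lists of the 3 replicates share most of their regions and their control. The split by base was made after the shares of the single forms had been seen. The windows contained 57.4% A and T at intergenic, 58.4% at intronic and 58.9% at promoter summits, and the part of base composition in these differences was not tested.

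**Figure D2:**
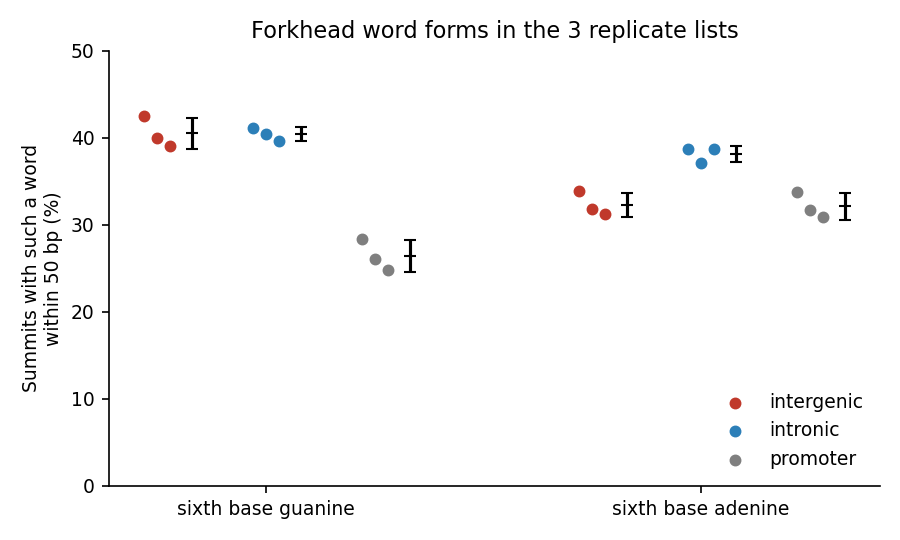
Share of summits in percent with a forkhead word within 50 bp (y axis), for words whose sixth base is guanine (left) or adenine (right), in intergenic (red), intronic (blue) and promoter (grey) regions among the 9531 strongest of each replicate. Points are replicates 1 to 3 from left to right and bars the mean ± SD (n = 3); with guanine the promoter points, at 24.8 to 28.4%, lie below the intergenic ones, and with adenine the intronic points, at 37.1 to 38.7%, lie above them.

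Intergenic peaks were weaker than promoter peaks. The deposited signal score, whose scale is not stated, had a median of 262.1 in intergenic peaks (quartiles 199.9 and 402.9, range 160.1 to 3176), 281.9 in intronic and 322.0 in promoter peaks. Of all peaks 20% are by definition in the strongest 20% of the list. This class held 169 of the intergenic peaks (15.3%), 23.5% of the promoter peaks (odds ratio 0.590, 0.491 to 0.707, Fisher's exact test, p = 2.0e-09) and 17.6% of the intronic peaks (odds ratio 0.845, 0.699 to 1.02, p = 0.077). The difference from introns did not pass the threshold. It passed without all summits between mIF2 and Noa36, the genes on either side of fkh (odds ratio 0.800, Fisher's exact test, p = 0.019). Of the summits left out there, 29 (76.3%) were intergenic. The odds ratio turned to 1.07 in the stronger part of the list.

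The link between strength and the forkhead word was looser in intergenic peaks than elsewhere. From the weakest to the strongest 20% of the list, the share with a word went from 57.4% to 77.5% in intronic peaks and from 41.2% to 64.7% in promoter peaks, but from 56.8% to 66.3% in intergenic peaks. These extremes differed in introns (odds ratio 2.56, Fisher's exact test, p = 8.6e-17) and at promoters (2.61, p = 2.5e-21). In intergenic peaks the odds ratio was 1.49 (0.985 to 2.27, Fisher's exact test, p = 0.058). The share in the flanks of intergenic peaks also went from 23.4% in the weakest to 31.4% in the strongest 20%. In intronic flanks it went from 25.6% to 27.9%, and in promoter flanks from 23.4% to 20.9%. Whether the rise at intergenic summits exceeds that in their flanks was not tested. In the strongest 20%, 112 of 169 intergenic and 523 of 675 intronic peaks had a word (odds ratio 0.571, 0.391 to 0.841, Fisher's exact test, p = 0.0037). In the replicate lists the share for the strongest 20% was 68.7%, 61.9% and 61.6% in intergenic and 76.2%, 74.9% and 76.1% in intronic regions. These values did not overlap.

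The test of the difference itself was weaker. In a logistic model the odds of a word rose 1.12-fold per step of 20% of the list in intergenic and 1.25-fold in intronic peaks, a ratio of 0.895 with a 95% interval of 0.810 to 0.990. Against the 1.28-fold of promoter peaks the ratio was 0.878 (0.796 to 0.969). The comparison with introns was chosen after the shares were seen, and its ratio no longer passed 0.05 in the likelihood ratio test with windows of 25 bp to each side (0.962), with protein-coding genes only (0.917), with a TSS limit of 1000 bp (0.912), with TGTTTAC and TGTTTAT alone (0.921) or without replicate 2 (0.901). The number of words showed the same picture. Intergenic peaks with no word had a median signal score of 250.8, those with 1 word 267.2, with 2 words 262.4, with 3 words 304.9 and with 4 or more 270.8. In introns the medians for the same numbers of words climbed from 251.6 through 288.9, 316.8 and 324.4 to 351.7.

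**Figure D3:**
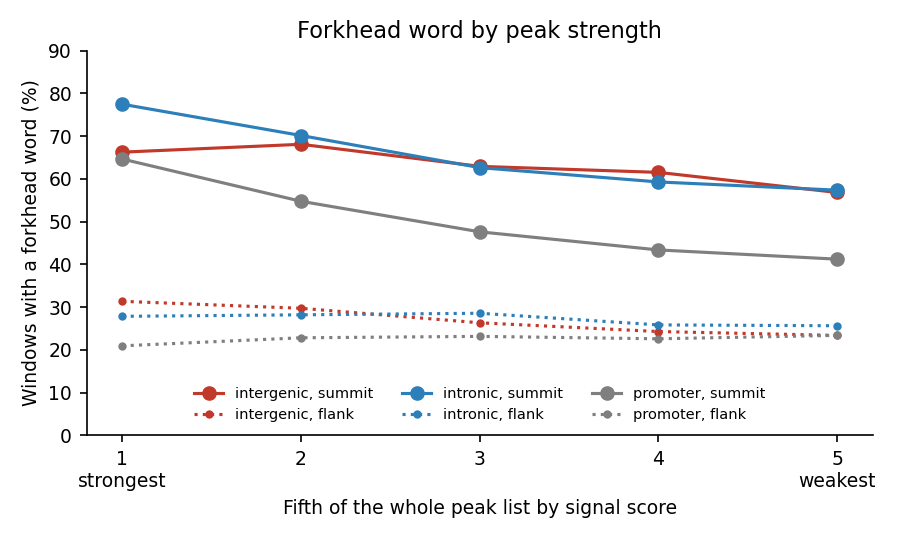
Share of windows with a forkhead word in percent (y axis) by steps of 20% of the whole list from the strongest to the weakest (x axis), at summits (solid lines) and in flanks 500 bp away (dotted lines), for intergenic (red), intronic (blue) and promoter (grey) peaks. The intergenic line lies at 66.3% in the strongest step, below the intronic 77.5%, and at 56.8% in the weakest, beside 57.4%.

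Intergenic peaks were also found less evenly across the replicates. A peak counted as found in a replicate when it overlapped one of that replicate's 9531 strongest regions by at least 1 bp. By this measure 89.6%, 85.4% and 76.1% of the intergenic peaks were found in replicates 1, 2 and 3, compared with 91.1%, 90.4% and 89.9% of the promoter peaks and 91.4%, 86.2% and 83.3% of the intronic peaks. The gap was widest in replicate 3, with odds ratios for intergenic peaks of 0.358 against promoter peaks and 0.638 against intronic peaks (Fisher's exact test, Benjamini-Hochberg adjusted over 6 comparisons, adjusted p = 2.4e-29 and 3.2e-07). In replicate 2 the difference from promoter peaks passed (odds ratio 0.623, Fisher's exact test, adjusted p = 7.7e-06) and that from intronic peaks did not (0.938, adjusted p = 0.52). In replicate 1 neither difference passed (Fisher's exact test, adjusted p = 0.16 and 0.11).

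All 3 replicates held 717 intergenic peaks (65.0%), against 72.9% of all peaks, 77.7% of promoter peaks (odds ratio 0.533, 0.461 to 0.618, Fisher's exact test, p = 3.1e-17) and 70.8% of intronic peaks (0.767, 0.664 to 0.886, p = 0.00027). Within 5 steps of signal the combined odds ratios were 0.699 and 0.789, both past 0.05 in the Mantel-Haenszel test. The difference from introns was not kept without replicate 3 (odds ratio 0.877, Fisher's exact test, p = 0.11). The intergenic share of each replicate's own strongest regions was 11.7%, 11.3% and 9.90% (mean 10.96 ± 0.936, SD, n = 3), again lowest in replicate 3, where the promoter share was the highest of the 3 at 48.8%. Whether read depth or enrichment differed in replicate 3 was not tested, as the lists give neither.

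**Figure D4:**
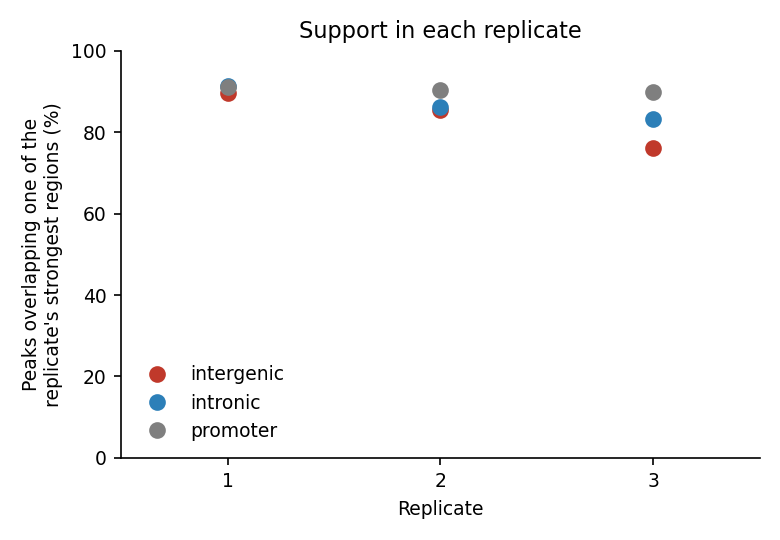
Share of peaks of the reproducible list in percent (y axis) that overlap one of the 9531 strongest regions of replicates 1, 2 and 3 (x axis), for intergenic (red), intronic (blue) and promoter (grey) peaks. The classes lie together in replicate 1, at 89.6 to 91.4%, and apart in replicate 3, at 76.1, 83.3 and 89.9%.

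Among 14 further words, those of GATA factors, zinc-finger proteins active in the gut and fat body, set intergenic peaks apart from introns. AGATAA or TGATAA lay within 50 bp of 14.96% of intergenic and 19.4% of intronic summits (odds ratio 0.729, Fisher's exact test, adjusted p = 0.0095 over the 14 words). Its intergenic share was close to that of the flanks, 13.6%. This difference was not called with windows of 25 bp or in the stronger peaks of the list, where no word passed. In comparisons added after the first results were seen, intergenic summits had, against their own flanks, more CACACACA repeats, 5.89% against 1.90% (exact McNemar test, adjusted p = 2.2e-05), more Sox words (ACAAAG or ACAATG), 18.2% against 11.8% (adjusted p = 0.00019), and more GAGAG, the word of the GAGA factor, 16.0% against 12.1% (adjusted p = 0.026). The homeodomain word TAATTA was rarer, 5.17% against 9.79% (exact McNemar test, adjusted p = 0.00024). The word TATCGATA of the promoter factor DREF was present at 0.272% of intergenic and 3.47% of promoter summits (odds ratio 0.0758, Fisher's exact test, adjusted p = 1.5e-10), and Sox words were more frequent than at promoters, which had them at 14.1% (adjusted p = 0.0063). A word in a window is a match of letters and not a shown binding site.

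Intergenic peaks were denser near TSSs than far from them, though not in the same way in all gaps. The sequence that meets the rule amounts to 36.3 Mb and held 30.4 summits per Mb. It includes transposable elements, whose part in the fall of density with distance was not tested. The distance to the nearest TSS had a median of 2534 bp, with quartiles of 1243.5 and 5781.5 bp and a maximum of 36773 bp. Density fell from 78.3 summits per Mb at 500 to 1000 bp from a TSS (95% Poisson interval 68.3 to 89.3) through 52.9 at 1000 to 2000 bp and 36.3 at 2000 to 5000 bp to 25.4, 21.4 and 3.10 in the bins up to 10000, up to 20000 and beyond 20000 bp. The share of summits with a forkhead word did not follow this fall, running from 59.5% nearest the TSS to 66.5% at 5000 to 10000 bp and 70.8% for the 24 summits beyond 20000 bp, with intervals that overlap. The nearest gene end was a 5′ end for 580 peaks and a 3′ end for 523. These counts do not show a preference, since the rule leaves out sequence within 500 bp of TSSs but not of 3′ ends. The share of sequence nearest each kind of end was not computed.

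Gaps into which both neighbouring genes open held more summits than those in which both genes end. The densities were 42.2 per Mb where both genes start at the gap (37.7 to 47.2), 28.2 where 1 does and 25.7 where none does (22.6 to 29.1), a ratio of 1.64 between the first and the last (1.39 to 1.95). The ratio was 1.55, 1.85 and 1.62 in the 3 replicate lists. It was not the same at all distances, since between 1000 and 2000 bp from a TSS the densities were 53.7, 53.1 and 51.5 and between 5000 and 10000 bp they were 20.7, 24.9 and 29.7. Between 10000 and 20000 bp they were 12.9, 24.8 and 21.2. Beyond 20000 bp they were 20.3, 1.07 and 2.82, from 12, 5 and 7 summits. The low density beyond 20000 bp was thus not seen where both genes start. Density was 39.0 per Mb on chromosome arm 3L (34.98 to 43.3) and 21.0 on X (17.2 to 25.3), with 24.3 to 32.5 on 2L, 2R, 3R and the fourth chromosome.

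The peaks were unevenly shared among the gaps. Of 5532 gaps between protein-coding genes that contain sequence meeting the rule, 561 (10.1%) held a peak, 340 of them exactly 1. The 60 gaps with 4 or more summits held 398 of the 1103 (36.1%) in 4.44% of the sequence. Among 542 pairs of neighbouring summits in the same gap the median spacing was 1599.5 bp, and 112 pairs were within 300 bp, so that some summits share a region.

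The gap downstream of fkh itself held the most, 26 summits in 16 regions over 36.2 kb, or 729 per Mb. It separates fkh (FBgn0000659, chr3R:28580976-28585264, minus strand) from mIF2, which encodes a mitochondrial translation initiation factor. The strongest summit there, with a signal score of 2921.8, lay 33.6 kb beyond the 3′ end of fkh and 2556 bp from the start of mIF2, and ranked 6, 10 and 6 in replicates 1 to 3. The next was a summit 24.4 kb from fkh with a score of 1608.8 and ranks of 87, 141 and 66. A group of 4 summits between 9.73 and 11.2 kb from fkh had scores of 711.4 to 1434.4, and a summit 80 bp past the gene's 3′ end had a score of 936.0. Of the 26 summits 18 carried a forkhead word and 24 were found in all 3 replicates. Over all intergenic peaks these shares were 62.5% and 65.0%. Summits of the same region take the same ranks, so the 24 are not separate findings. Upstream of fkh, in the gap towards Noa36, a summit with 3 words scored 1547.6 and ranked 61, 234 and 172. The flies carry an insertion aimed at fkh, and its part in these peaks was not tested. Without all summits between mIF2 and Noa36, 29 of them intergenic, the forkhead odds ratio was 1.57 against promoters and 0.900 against introns.

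**Figure D5:**
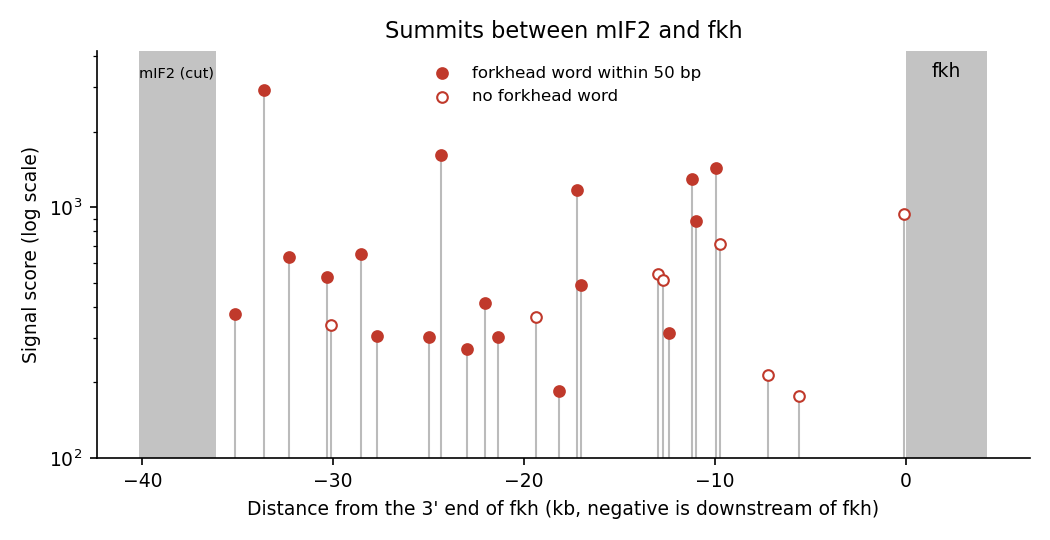
Signal score on a log scale (y axis) of the 26 intergenic summits between mIF2 and fkh by distance in kb from the 3′ end of fkh (x axis), with filled points for the 18 summits that hold a forkhead word within 50 bp and open points for the others. Grey bands are the gene bodies, that of mIF2 cut at the left; the highest point, at 2921.8, lies 33.6 kb from fkh.

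After it came 6 gaps with 11 to 19 summits each. The gap between hry, which encodes the Hairy repressor, and SrpRbeta held 19 summits with a highest score of 1533.2. Of these, 18 were found in all 3 replicates, beside 65.0% of all intergenic peaks, and summits of the same region share their ranks. The gap between NijA, a cell-surface Ninjurin, and CG43245 held 18, with a highest score of 1396.4. The gap between scyl, an inhibitor of growth signalling induced by hypoxia, and Dyro held 16, with a highest score of 1073.6. The gap between RFeSP and chinmo, a temporal identity factor whose level falls at metamorphosis, held 11 with a highest score of 1225.3, all found in the 3 replicates. The gaps between hng3 and CG13898 and between plh and corto also held 11 each, with lower highest scores of 706.4 and 458.3.

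The strongest intergenic peak of all, with a score of 3176 and ranks of 4, 8 and 3, lay between Psc, which encodes a Polycomb group protein, and CG33798, 2897 bp from the nearest TSS. It was the 4th strongest of all 9531 peaks. The peak between jp, which encodes a junctophilin, and brwl scored 2665.6 and ranked 19, 9 and 5. The peak between corto, a partner of Polycomb and trithorax group proteins, and CG43131 scored 2285.0 with ranks of 9, 28 and 39. These 3 peaks and the strongest one between mIF2 and fkh kept ranks within the first 39 regions of every replicate.

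The rest of the 15 strongest ranged down to 1474.9. Among them the peak between Hacd1, a fatty acid elongation enzyme, and Rh5, a rhodopsin, scored 1768.8 and ranked 35, 170 and 61. The peak between CG6168 and CG6163 scored 1762.8 and held 4 words. Further ones had as a neighbour Not1 (1614.8), a scaffold of the CCR4-NOT complex, or Or56a (1608.0), an odorant receptor. Others had dac (1545.3), a regulator of leg and eye development, LS2 (1538.3), a splicing factor, noc (1516.4), a zinc-finger protein, or CG17896 (1474.9). Or56a and LS2 were the farther neighbours, at 54443 and 16594 bp from the summit. The nearer ones, CG8517 and CG3092, were at 150 and 4493 bp. Of the 15, the peaks beside LS2 and CG17896 had no forkhead word.

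At the other extreme of distance, the 3 summits farthest from any TSS had scores between 249.7 and 417.9. The summit between Pld and jing, a zinc-finger factor, was 36773 bp from a TSS, scored 330.3 and ranked 3954, 4722 and 5683. The summit between bab1 and bab2, paired factors of leg and abdomen patterning, was at 36472 bp with a score of 249.7. The summit between vvl, a POU-domain factor, and Prat2 was at 35869 bp with a score of 417.9. All 3 carried a forkhead word and were found in all 3 replicates. At the 500 bp limit itself, the nearest members had summits 501, 503 and 503 bp from the TSSs of CG17544, ara and bowl, with scores of 411.1, 204.2 and 402.4. The nearest summits left out were 499, 497 and 496 bp from CG14147, CG7179 and CG10337, with scores of 260.8, 438.4 and 654.4.

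In all, 1003 of 13945 protein-coding genes (7.19%) were the left or right neighbour of an intergenic peak. Of these 1003, 357 (35.6%) also had a peak within 500 bp of one of their TSSs, compared with 26.8% of all protein-coding genes and 23.3% of the 6862 genes that border sequence meeting the rule but no peak. The share of genes beside a peak rose with the length of that sequence, from 0.152% of genes with up to 0.201 kb to 29.2% of those with more than 7.56 kb. Among genes with up to 0.201 kb of such sequence 0 of 3 neighbours of a peak had a promoter peak, against 33.3% of the others. The shares were 40.6% against 25.7% with 0.202 to 1.29 kb, 43.7% against 17.6% with 1.29 to 7.54 kb, and 30.3% against 12.5% with more. Neighbourhood does not show which gene a region acts on.

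Regulators of the salivary gland, a known site of fkh function, were neighbours in 9 of 15 cases (60%), beside the 7.19% of all genes. Their gaps were long, with a median of 17.3 kb of sequence meeting the rule per gene against 0.065 kb over all genes. Apart from fkh with 29 peaks, the strongest were beside rib (634.9), a BTB factor of tube formation, and Doc1 (480.7), a T-box factor. Without fkh the list had 8 of 14 and 67.3 peaks per Mb of its gaps, against 30.4 over all gaps, with a median score of 224.2 against 262.1 over all intergenic peaks. Regulators of the gut were neighbours in 16 of 29 cases, with peaks beside mirr (962.2), an Iroquois homeodomain factor, exex (614.8), and between srp and GATAe (577.9), which both encode GATA factors of the gut and fat body. The median score beside gut regulators, 295.9, was above that of all intergenic peaks, 262.1, a difference that was not tested. This was not particular to the gut, since the median was 403.3 beside ribosomal protein genes and 372.0 beside Hox genes and cofactors. Other lists were lower, such as neural and sensory factors with 236.1. The forkhead family itself had 8 of 17, including fkh, fd96Ca (825.3), bin (575.9), needed for the visceral muscle of the gut, and foxo (448.8), the effector of insulin signalling. Without fkh the family had 101.8 peaks per Mb.

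Factors that pattern the imaginal discs and limbs were neighbours in 30 of 48 cases, the highest share of the 16 lists, with peaks beside dac (1545.3), H15 (1091.3), a T-box factor, and caup. The peak of caup is the one named above for mirr, 63098 bp from caup and 8743 bp from mirr. Their gaps had a median of 21.97 kb of sequence meeting the rule per gene and held 62.7 peaks per Mb. Muscle and mesoderm factors reached 10 of 23 (43.5%) and Hox genes and cofactors 6 of 17 (35.3%). Neural and sensory factors had 12 of 39 (30.8%) and signalling ligands 15 of 45 (33.3%). In the same order, the median lengths of sequence meeting the rule were 7.99, 7.66, 9.71 and 3.26 kb per gene. The share was 7.19% over all genes, and 29.2% over genes with more than 7.56 kb of such sequence. The Hox gaps were sparse, at 21.5 peaks per Mb. Their strongest peaks had abd-A (919.5) and Antp (670.6) as neighbours, at 8314 and 38112 bp from the gene. Neural factors had strong peaks beside zfh2 (1384.0) and SoxN (873.5), at 3883 and 16434 bp from the gene. Ligands had them beside Ser (499.1), a Notch ligand 14748 bp away, and between upd3 and upd1 (443.8), which activate the JAK/STAT pathway.

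Genes of the ecdysone response were neighbours in 6 of 30 cases, 20% beside the 7.19% of all genes, with 22 peaks in 0.158 Mb, or 139.6 per Mb against 30.4 over all gaps. Most of these peaks stood beside chinmo (11 peaks), Eip75B (6 peaks, strongest 442.4), a nuclear receptor induced directly by ecdysone, and Kr-h1 (strongest 755.6), a mediator of juvenile hormone. Of the 30 genes 17 (56.7%) had a peak at a promoter, beside 26.8% of all genes. Insulin and TOR signalling had 4 of 27 genes (14.8%) beside an intergenic peak, among them foxo, ImpL2 (292.9) and Pdk1 (273.9), and 14 (51.9%) with a promoter peak. Their gaps had a median of 0.078 kb of sequence meeting the rule per gene and held 179.2 peaks per Mb. Ribosomal protein genes had 3 of 93 (3.23%) beside an intergenic peak, the strongest next to RpL22 (650.5), and 55 (59.1%) with a promoter peak.

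The remaining lists are of genes for structural, digestive, sensory or stress proteins, and their shares are read beside the 7.19% of all genes. None of 20 heat shock genes and none of 46 digestive enzyme genes bordered an intergenic peak, and their gaps amount to only 0.0346 and 0.0370 Mb. At promoters these 2 lists parted, with a peak at 9 of the 20 heat shock genes and at 0 of the 46 digestive enzyme genes. Over all protein-coding genes the promoter share was 26.8%. It was 8.33% for salivary glue, 1.71% for cuticle protein and 1.11% for chemoreceptor genes. Of 12 salivary glue genes, whose products fix the pupal case to its surface and several of which are known targets of Fork head, 1 (8.33%) bordered an intergenic peak, Sgs3, with a single weak peak (163.3, ranks 15970, 6373 and 12033). Cuticle protein genes had 3 of 117 (2.56%), with peaks beside Cpr11A (455.7), Cpr35B (446.0) and Cpr72Ea (412.1). Chemoreceptor genes had 9 of 180 (5%) in 1.17 Mb of gaps, 17.9 peaks per Mb, with the strongest beside Or56a, which lay 54443 bp from the summit, Ir68a (715.3) and Gr93a (445.9). The lists overlap in part, since 45 of their genes are in more than 1 list, and a peak between members of different lists counts for both.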

How the data were processed

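Per the labels, chromatin of 3 biological replicates of 1 group was sonicated and sequenced. The authors deposited region lists on release 6 (dm6) for each replicate and for the pool (30000 regions each) and the reproducible list; aligner, caller and reproducibility threshold: not given in the sources used here. Column 7 of the deposited lists is a signal score whose scale is not stated, and column 9 a deposited −log10 q-value that is the same (4.29) for every reproducible region and was not used. Read depth is unknown, so no depth-based interval is given. Lists on the older build were not used.

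Summits were placed against the Ensembl release 115 annotation (18164 genes; 5809 transposable elements were not counted as genes). Sequence came from the RefSeq release 6 assembly. Words were searched on both strands in windows of 50 bp to each side of the summit, and in a flank 500 bp to a side drawn with a fixed seed. A region counted as found in a replicate when it overlapped one of its 9531 strongest regions. Intervals on shares are exact binomial and on densities exact Poisson, at 95%, and cover counting error only; p-values over peaks treat peaks as independent. Fisher's exact, McNemar and Mantel-Haenszel tests (over 5 signal steps) were run with SciPy 1.17.1, NumPy 2.4.6 and pandas 2.3.3, and were tested on simulated data. Logistic models were run with statsmodels 0.14.6 and were not tested in this way. p-values over 14 words were adjusted by Benjamini-Hochberg.

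The regions, gene lists and tests were chosen with earlier results of these data known. Genes named are the neighbours of the 15 strongest members, of the gaps with the most members (7 with ties), of the 3 members farthest from a TSS, of 3 summits on each side of the 500 bp limit, and up to 3 per list (foxo, in the forkhead family, is named again there). Of the list symbols, 3 matched no annotated protein-coding gene.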

Additional observations from a re-analysis of the deposited data

How the results depend on the processing

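The main results with a test, the intergenic share and the orientation ratio were recomputed under the settings that apply to each. The settings were other TSS limits (250 and 1000 bp), protein-coding genes only, the stronger part of the list and close summits removed. Further ones were other windows, words, overlaps or numbers of regions, and each replicate left out. Counting transposable elements as genes (1073 members) was chosen after seeing the data. So was leaving out summits within 20 kb of fkh or between mIF2 and Noa36. Gene lists, gap counts and distance densities were not recomputed. Of 129 alternatives of results with a test, 111 kept their direction and their side of the threshold; of 31 of other values and counts, 23 stayed within the replicate SD or within 1.5 times. With TGTTTAC and TGTTTAT alone, the forkhead odds ratio against promoters turned to 0.993. Against introns it passed the threshold at 0.834 (250 bp limit), 0.828 (100 bp windows) and 0.832 (TGTTTAC and TGTTTAT alone). Presence in all 3 replicates against introns no longer passed with 15000 regions per replicate (odds ratio 0.844), with an overlap of most of both regions (0.900) or in the stronger part of the list (0.719), where the promoter comparison was lost too (0.693). Without 1 replicate in turn it ran from 0.683 to 0.877 against introns and from 0.452 to 0.697 against promoters. The comparison of the strongest 20% with introns passed at 0.814 both without close summits and without summits within 20 kb of fkh, passed at 0.800 without those between mIF2 and Noa36, and turned to 1.07 in the stronger part of the list. The mean intergenic share moved to 9.29% with 5000 and 12.8% with 15000 regions, and ran from 10.6 to 11.5% without 1 replicate. The number of words that differ from introns was 0 with 25 bp windows, 2 with 100 bp windows and 0 in the stronger part of the list. The words that differ from flanks went from 4 to 1 in that stronger part. The density ratio by gap orientation fell to 1.41 with the 1000 bp limit and 1.42 with transposable elements as genes. The causes of these shifts were not tested. The odds ratios of G forms against promoters and of A forms against introns kept their direction and passed under all 12 alternatives each. No paired analysis was possible because there is 1 group.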

Other observations

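In the list called on the pooled replicates, 17575 regions overlapped no reproducible region, and the summits of 3800 of these regions (21.6%) met the same position rule, compared with 11.6% of the reproducible regions. A forkhead word lay within 50 bp of 41.8% of these 3800 summits (exact 95% interval 40.3 to 43.4%), between the 26.5% of intergenic flanks and the 62.5% of the reproducible intergenic summits.

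Forkhead words 100 to 300 bp from a summit were more numerous on its left, towards lower coordinates, than on its right. In intergenic peaks there were 1078 on the left and 862 on the right, a ratio of 1.25, and over all 9531 peaks 9264 and 7858, a ratio of 1.18. The ratio over all regions was 1.18, 1.15 and 1.11 in the 3 replicate lists. The flank side was drawn at random for each summit, and with the opposite side of each the summit-to-flank ratio was 2.16 in place of 2.36. This asymmetry was noticed in the data and its source was not tested.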
